A study of Mus with 4 samples.

Results

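The AP-1 and immediate early genes examined here are Fos, Fosb, Fosl1, Fosl2, Jun, Junb, Jund, Atf3, Egr1 and Ier3, 10 of the 18193 genes that the arrays measured. They were chosen by name, with earlier results of these data known. Every probe set whose platform annotation gives 1 of these symbols and no other was taken. This gave 14 probe sets of 45037, with at least 1 for each gene. The cells were PPS-ICBR, a mouse prostate cancer cell line of strain C57Bl6, grown in serum-containing DMEM. They had been plated at 60% confluency and then received overnight either vorinostat, given at 5 µM from a DMSO solution, or only the solvent, of which 5 µL was added to 10 mL of medium. Each group had 2 arrays (DMSO 1 and 2, Vorinostat 1 and 2), all from this single line and a single length of exposure. Whether the 2 arrays of each group represent independent cultures is not stated, so every p-value reflects array-to-array spread that may be technical.

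AP-1 is a transcription factor made of pairs of basic leucine zipper (bZIP) proteins. JUN proteins can pair with each other, whereas FOS proteins bind DNA only when paired with a JUN or a related protein, so that the make-up of AP-1 depends on which family members a cell contains. Many of these genes are immediate early genes: signals that pass through the MAP kinases switch them on within minutes without new protein synthesis, and their mRNAs are short-lived. Atf3 is a stress-induced bZIP factor that often represses its targets, Egr1 is a zinc finger factor induced alongside Fos, and Ier3 encodes a stress-induced protein that affects cell survival and does not bind DNA itself. Vorinostat inhibits histone deacetylases, the enzymes that remove acetyl groups from histones and other proteins.

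Values are the deposited log2 values, and each change is the vorinostat mean minus the DMSO mean (n = 2 arrays each), with its standard error (SE) from limma. A gene is called if its brightest probe set, by the average of the 4 arrays, has an adjusted p under 0.05. A large part of the transcriptome differed between the groups: 39.9% of all genes were called, 20.9% higher and 18.9% lower, and the arrays of the groups did not overlap in 68.9%. The luminal epithelial keratins Krt8 (12.31 in DMSO, 11.26 in vorinostat) and Krt18 (11.49 and 11.42) were bright. The basal epithelial markers Krt5 (4.56 and 4.65), Krt14 (5.14 and 5.37) and Trp63 (4.32 and 4.37) were dim, and none of them passed. Of 5 leukocyte markers, Ptprc, Itgam and Adgre1 were near background, that is less than 1 log2 unit above the brightest tryptophan-gene control probe set of each array, while Csf1r (4.77 and 4.95) and Cd3e (4.50 and 4.94) lay above it, and Cd3e was called higher. Of 3 endothelial markers, Pecam1 was near background, and Cdh5 (4.32 and 4.39) and Kdr (4.12 and 4.36) lay above it. The summed signal of the leukocyte markers was 6.08 and 6.20 in DMSO and 6.31 and 6.38 in vorinostat, and that of the endothelial markers 5.40 and 5.50 against 5.46 and 5.70. Of 4 fibroblast markers, Dcn and Pdgfra rose (1.26 and 1.54), Col3a1 fell (-0.89) and Col1a1 did not pass (-0.31). Col3a1 read 9.93 and 10.61 on the vorinostat arrays, and at its dimmer probe set the groups overlapped (change -0.26). The summed signal of the fibroblast markers lay between 11.55 and 11.57 in DMSO and between 11.27 and 11.68 in vorinostat on the log2 scale. The part of any of these markers in the results below was not tested. In RNA of a whole culture, fewer cells of a kind and less RNA per cell cannot be told apart. Of 4 luminal epithelial markers, 1 fell (Krt8), with a summed signal of 13.01 and 13.07 in DMSO and of 12.37 and 12.55 in vorinostat.

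Atf3, Junb, Egr1, Fos, Ier3, Fosl2 and Jund were higher with vorinostat, Fosl1 was lower, and Jun and Fosb did not pass the test. Thus 7 of the 10 genes rose, against 20.9% of all genes, and 1 fell, against 18.9%. Of these, 5 genes rose and 1 fell by at least 2-fold, where 5.74% and 6.17% of all genes changed by as much. The median change of the 10 genes was 1.20, against 0.03 for all genes. In all 10, Jun and Fosb included, the arrays of the groups did not overlap at the brightest probe set, as in 68.9% of all genes. The shares of all genes, here and for the lists below, include 4650 genes near background on every array, against 1 of the 10. With only the 22518 probe sets above the median level, 7138 were higher and 7191 lower. Over all 45037 probe sets, 16.5% were higher and 15.7% lower. The shares of all genes are therefore low as a measure for the brighter genes.

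**Figure D1:**
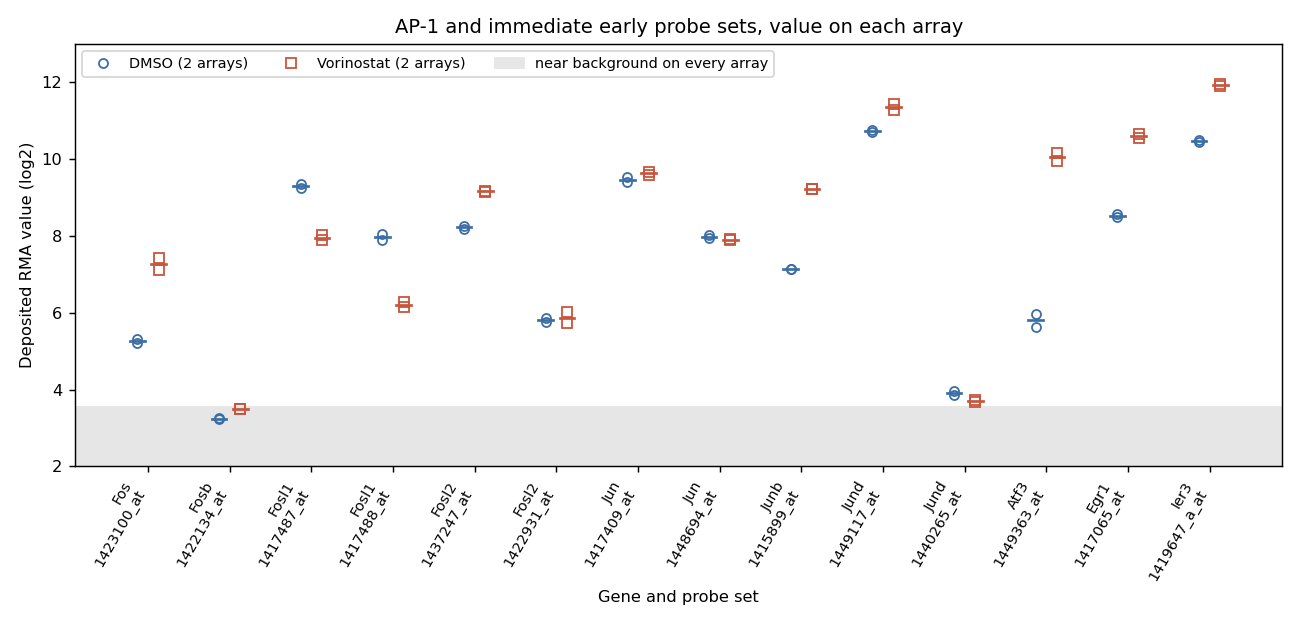
Deposited log2 value of each of the 14 probe sets on each array, with DMSO arrays as circles, vorinostat arrays as squares and group means as short lines; the grey band marks values near background on every array. The 2 arrays of a group lie at most 0.34 apart, the widest pair being the DMSO arrays of Atf3, and Fosb is the only gene of the 10 inside the band in both groups.

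Within the FOS family, Fos rose and Fosl1 fell. Fos encodes c-Fos, the founding and most short-lived member. Its probe set 1423100_at read 5.21 and 5.31 on the DMSO arrays and 7.42 and 7.12 on the vorinostat arrays. Both vorinostat arrays lay well above both DMSO arrays, by 1.81 to 2.20, and the change was 2.01 (SE 0.12), a 4.02-fold rise (limma, adjusted p = 0.000364). Fosl1 encodes Fra-1, a FOS protein that lacks the strong transactivation domain of c-Fos and is abundant in many invasive carcinoma lines. Its brighter probe set 1417487_at read 9.35 and 9.24 in DMSO and 7.89 and 8.02 in vorinostat. Its second probe set 1417488_at read 8.05 and 7.90 in DMSO and 6.15 and 6.27 in vorinostat. The vorinostat arrays were the lower ones at both probe sets. The changes were -1.34 (SE 0.09, adjusted p = 0.000489 by limma) and -1.77 (SE 0.10, adjusted p = 0.000299), which are falls of 2.53-fold and 3.41-fold.

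Fosl2, which encodes Fra-2, gave different answers at its 2 probe sets. The brighter, 1437247_at, read 8.26 and 8.19 in DMSO and 9.14 and 9.18 in vorinostat, so that the vorinostat arrays were higher by 0.88 to 0.99. It rose by 0.93 (SE 0.08, adjusted p = 0.000856 by limma), or 1.91-fold. The dimmer, 1422931_at, read 5.76 and 5.87 in DMSO and 5.74 and 6.01 in vorinostat. Here the groups overlapped, and the change of 0.06 (SE 0.12, 95% confidence interval -0.24 to 0.36) did not pass (adjusted p = 0.752 by limma). The intervals of the 2 probe sets did not overlap (0.73 to 1.14 for the brighter), so the size of the Fosl2 change depends on which is read. Fosb, whose short splice form accumulates after repeated stimulation in neurons, was measured by 1 probe set. It read 3.22 and 3.26 in DMSO and 3.50 and 3.49 in vorinostat, near background on all 4 arrays. Its vorinostat arrays were the higher ones, but the difference of 0.25 (SE 0.08) did not pass (adjusted p = 0.0597 by limma), and no fold is given for a gene at this level.

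Within the JUN family, Junb and Jund rose and Jun did not pass. JunB is a weaker activator than c-Jun and restrains proliferation in several cell types. Its probe set 1415899_at read 7.13 on both DMSO arrays and 9.23 and 9.22 on the vorinostat arrays. The arrays of a group were almost identical, and the change of 2.10 (SE 0.08) was a 4.28-fold rise (limma, adjusted p = 0.000168). Jund encodes the JUN protein that is expressed most steadily in resting cells. Its brighter probe set 1449117_at read 10.71 and 10.77 in DMSO and 11.43 and 11.28 in vorinostat, a rise of 0.61 (SE 0.09, adjusted p = 0.0054 by limma) with vorinostat arrays higher by 0.51 to 0.72. This call was lost without DMSO 1 (0.58, adjusted p = 0.0633), without DMSO 2 (0.64, adjusted p = 0.0521) and without Vorinostat 1 (0.54, adjusted p = 0.0508). A dim second probe set of Jund, 1440265_at, read 3.85 and 3.96 in DMSO and 3.72 and 3.68 in vorinostat. Its values lay on the other side, vorinostat below DMSO, and the difference of -0.20 (SE 0.08) did not pass (adjusted p = 0.135 by limma).

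Jun encodes c-Jun, the partner of most FOS proteins and the substrate after which the JNK kinases are named. At 1417409_at it read 9.52 and 9.41 in DMSO and 9.67 and 9.59 in vorinostat. At 1448694_at it read 8.03 and 7.94 in DMSO and 7.91 and 7.90 in vorinostat. The vorinostat arrays were thus slightly higher at the first probe set and slightly lower at the second. Neither difference passed in limma: it was 0.16 (SE 0.09, 95% confidence interval -0.06 to 0.38, adjusted p = 0.23) at the first and -0.08 (SE 0.08, 95% confidence interval -0.29 to 0.12, adjusted p = 0.512) at the second. Both intervals leave out a change as large as that of Junb (1.91 to 2.29).

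**Figure D2:**
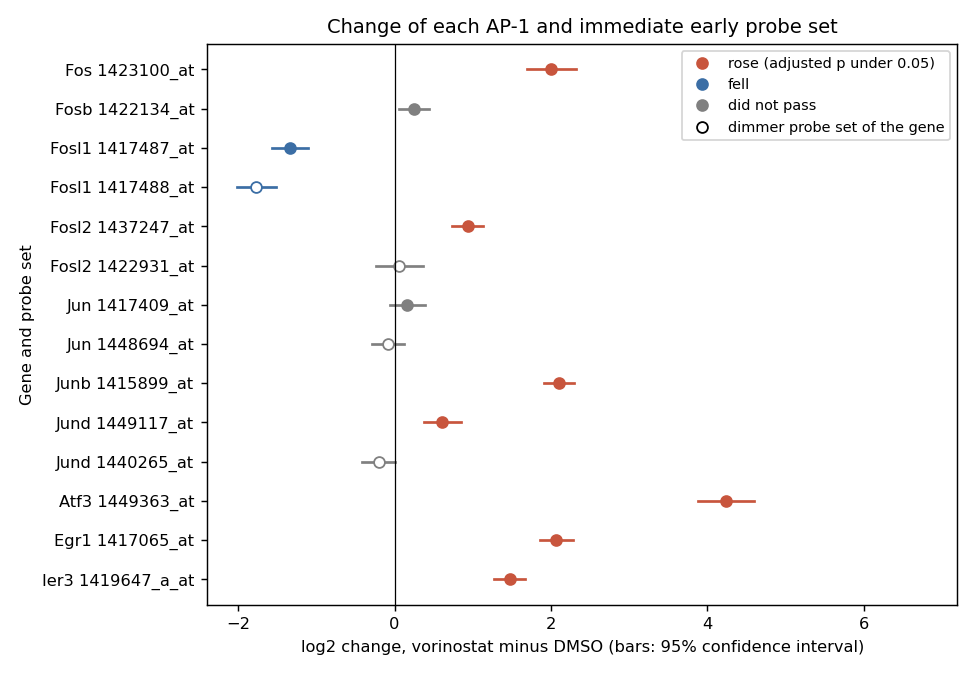
Change of each of the 14 probe sets on the log2 scale with its 95% confidence interval from limma, with filled points for the brightest probe set of a gene and open points for dimmer ones. Atf3 lies farthest to the right at 4.24, both Fosl1 probe sets lie left of 0, and the second probe sets of Fosl2, Jun and Jund lie near 0 in grey.

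The other 3 genes all rose. Atf3 had the largest change of the 10. It read 5.98 and 5.64 in DMSO and 10.15 and 9.96 in vorinostat at 1449363_at. The DMSO arrays were 0.34 apart, but every vorinostat array exceeded every DMSO array by 3.98 to 4.51, and the change of 4.24 (SE 0.14) was an 18.9-fold rise (limma, adjusted p = 0.00016). Egr1 read 8.56 and 8.49 in DMSO and 10.65 and 10.55 in vorinostat. Both vorinostat arrays were higher, and the rise of 2.07 (SE 0.08) was 4.20-fold (limma, adjusted p = 0.000185). Ier3, already bright in DMSO at 10.49 and 10.44, reached 11.96 and 11.91 in vorinostat. It rose by 1.47 (SE 0.08), or 2.77-fold (limma, adjusted p = 0.000285).

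Because probe sets differ in brightness, the levels of different genes were not set against each other, but their changes within the same arrays can be. The signal of Fos relative to Fosl1 was 3.56 and 3.13 log2 units above its DMSO mean on the vorinostat arrays, while the DMSO arrays lay 0.10 to either side of that mean. The same quantity for Fosl2 relative to Fosl1 was 2.32 and 2.23, with the DMSO arrays 0.02 to either side. For Junb relative to Jun it was 1.90 and 1.97, with the DMSO arrays 0.05 to either side. At the brightest probe sets, the balance of FOS transcripts thus moved from Fosl1 towards Fos and Fosl2 on both vorinostat arrays. That of JUN transcripts moved towards Junb, while Jun itself did not pass. Jund moved relative to Jun by 0.49 and 0.41, with DMSO arrays 0.09 to either side. The dimmer probe sets of Fosl2 (change 0.06) and Jund (-0.20) were not used for these ratios. No test of these ratios was run, and they are given as a description.

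Among all 18193 genes ordered from the largest rise down, Atf3 stood at place 13, Junb at 178, Egr1 at 183, Fos at 197 and Ier3 at 460. Fosl2 stood at place 1173 and Jund at 2164, whereas Fosb (4764) and Jun (6162) stood among genes with small differences. Ordered from the largest fall, Fosl1 stood at place 623. The rises of Junb, Egr1 and Fos, a JUN protein, a zinc finger factor and a FOS protein, were close in size, with overlapping 95% confidence intervals (1.91 to 2.29, 1.86 to 2.29 and 1.70 to 2.32).

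**Figure D3:**
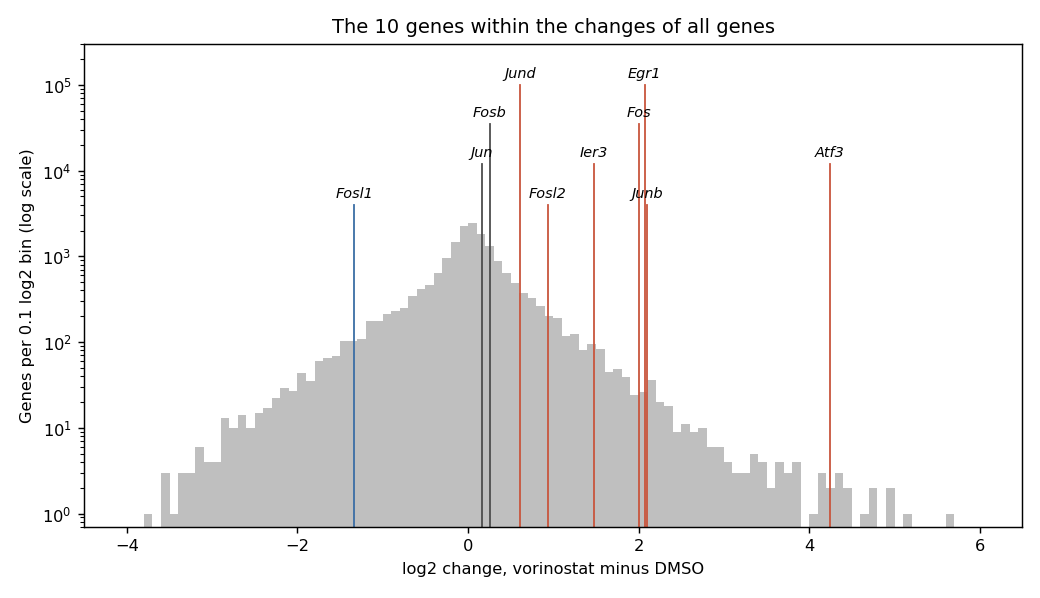
Distribution of the log2 change over 18193 genes in bins of 0.1, on a log count axis, with a vertical line at the change of each of the 10 genes (red rose, blue fell, dark grey did not pass; line heights only separate the names). Atf3 at 4.24 lies in the sparse right tail, Fos, Egr1 and Junb lie together near 2, and Jun and Fosb lie in the bulk.

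Other bZIP genes encode proteins that pair or compete with AP-1. Of 16 measured, 8 rose and 3 fell, against 20.9% and 18.9% of all genes, so that the falls were about as frequent as among all genes. The median change was 0.22, against 0.03 for all genes. Crem, a cAMP-responsive factor with activator and repressor forms, rose by 0.86 (SE 0.08), and Atf2, a JUN partner activated by stress kinases, by 0.69 (SE 0.08). Atf4, the effector of the integrated stress response and an activator of Atf3 transcription, fell by 1.00 on the log2 scale (SE 0.08), and Creb1 by 0.74 (SE 0.12). Creb1 lost its call without DMSO 1 (-0.64), without DMSO 2 (-0.84) and without Vorinostat 1 (-0.62). Jdp2, which pairs with JUN proteins and represses, changed by 0.31 (SE 0.09, adjusted p = 0.0473 by limma), and the hematopoietic factors Batf and Batf3 did not pass (0.13 and -0.02). Only 5 of the 16 rose without DMSO 1 or without Vorinostat 2, and 4 without DMSO 2 or without Vorinostat 1.

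Most other immediate early genes were higher. Of 32 measured, 24 rose and 2 fell, against 20.9% and 18.9% of all genes, with a median change of 0.90. Maff, which did not pass, is also counted among the bZIP genes above. The antiproliferative gene Btg2 rose by 2.18 (SE 0.17) and the synaptic plasticity gene Arc by 2.16 (SE 0.15). Ier5l, a relative of the immediate early gene Ier5, fell by 2.43 on the log2 scale (SE 0.08), and the pseudokinase gene Trib1 by 0.43 (SE 0.11). Among relatives of Egr1, Egr2 rose from near background in DMSO, by at least 0.78, and Egr4 rose by 0.49 (SE 0.08), while Egr3 did not pass at its brighter probe set (0.08, SE 0.08) and rose from near background, by at least 0.77, at a dimmer one. The MAP kinase phosphatases Dusp1 and Dusp6, which switch off the kinases upstream of these genes, rose by 1.19 (SE 0.08) and 0.68 (SE 0.09). Trib1 lost its call without DMSO 1 (-0.40), without DMSO 2 (-0.46) and without Vorinostat 2 (-0.31), which left 1 gene of the list lower.

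Of 18 measured genes upstream of the family, which encode MAP kinases, their activators and the factors that act at serum response elements, 6 rose and 4 fell, against 20.9% and 18.9% of all genes, with a median change of 0.00076. Rps6ka5, which encodes the histone H3 kinase MSK1, rose by 1.37 (SE 0.08), and Mrtfa, an actin-sensing coactivator of SRF, by 1.00 (SE 0.09). Srf itself, the factor that binds the serum response element of Fos and Egr1, fell by 0.87 on the log2 scale (SE 0.08), and its partner Elk4 by 1.16 (SE 0.13). Of the 3 other probe sets of Elk4, all dimmer, none passed, with changes of 0.02 to 0.06. The related factor Elk1 rose by 0.86 (SE 0.12) and Elk3 did not pass (0.11, SE 0.09). Without Vorinostat 2, 3 genes of this list rose, and 2 fell when any 1 of the 4 arrays was left out.

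Of 12 genes for AP-1 cofactors and for proteins that control its turnover, 3 rose and 4 fell, against 20.9% and 18.9% of all genes. The median change was -0.09, and the rises were about as frequent as among all genes. Jdp2, which is 1 of the 3 that rose, and Batf3 are also counted among the 16 bZIP genes above. Fbxw7, a ubiquitin ligase subunit that targets c-Jun, rose by 0.71 (SE 0.10), and Nab1, a corepressor of Egr1, by 0.51 (SE 0.08). The acetyltransferases Crebbp and Ep300, coactivators of AP-1, fell by 1.05 (SE 0.14) and 0.44 (SE 0.09) on the log2 scale. Each of these 4 calls was lost without some array: Fbxw7 (0.69) and Crebbp (-0.96) without Vorinostat 1, Nab1 without DMSO 1 (0.50) or Vorinostat 2 (0.49), and Ep300 when any 1 of the 4 was left out (-0.50 to -0.38). Without Vorinostat 1, 0 of the 12 fell past the adjusted threshold of limma and 4 had an unadjusted p under 0.05, and 1 fell without each of the others, while 1 rose without DMSO 1, Vorinostat 1 or Vorinostat 2.

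Known AP-1 target genes were mostly higher. Of 26 measured, 17 rose, against 20.9% of all genes, and 5 fell, a share close to the 18.9% of all genes. The median change was 0.82, against 0.03 for all genes. The cornified envelope gene Sprr1b rose by 4.22 (SE 0.14) and the matrix metalloproteinase Mmp10 by 3.68 (SE 0.12). The collagenase gene Mmp13 rose from near background, by at least 2.47, and the cytokine gene Il6 by at least 0.72. Mmp3 rose by 1.82 (SE 0.08), whereas Mmp9 did not pass (0.16, SE 0.13). The cyclin gene Ccnd1 fell by 2.11 on the log2 scale (SE 0.18), and by 2.13 and 2.47 at its 2 other probe sets. Fosl1, itself an AP-1 target and one of the 10 genes, had the next largest fall. The number that fell was 3 when any 1 of the 4 arrays was left out.

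**Figure D4:**
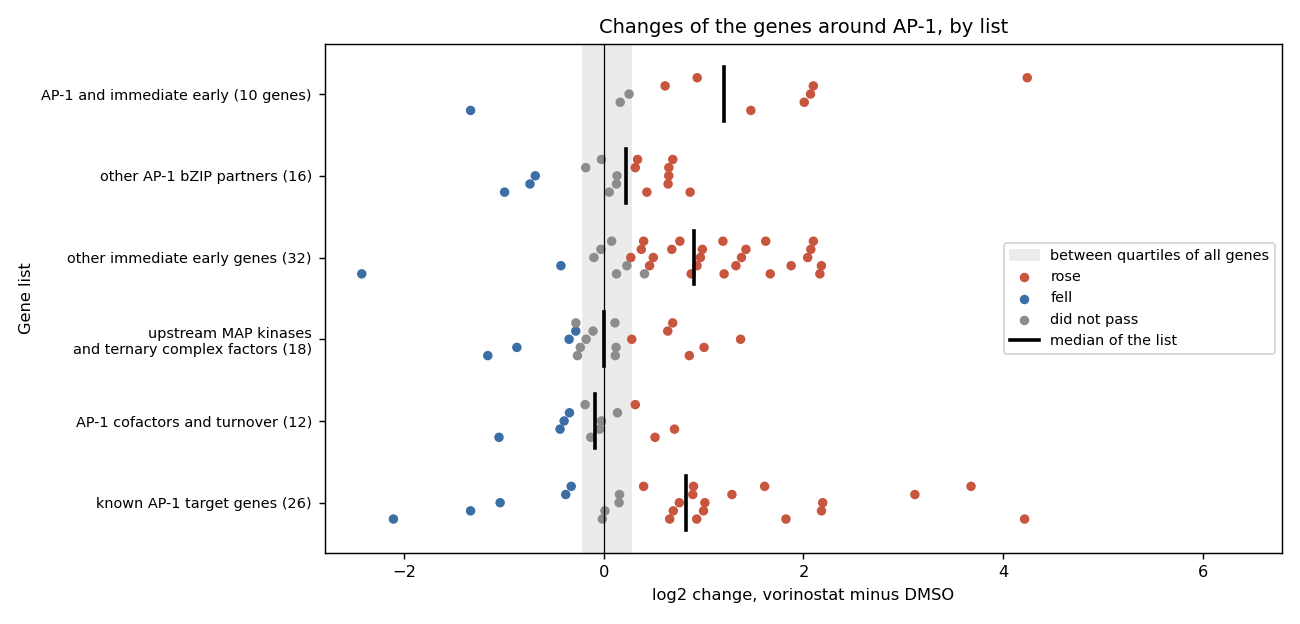
Log2 change of each gene (points; red rose, blue fell, grey did not pass) in the 10 AP-1 and immediate early genes and in 5 lists around them, with the median of each list as a black bar and the range between the quartiles of all genes (-0.21 to 0.27) shaded. The medians of the other immediate early genes (0.90) and of the known AP-1 targets (0.82) lie right of the shaded range, and those of the bZIP partners, the upstream genes and the cofactors lie inside it.

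The genes on either side of the 10 on their chromosomes were also read, because some AP-1 genes lie next to one another: Jdp2 and Batf follow Fos, and Batf3 lies near Atf3. Of 20 immediate neighbours, 19 were measured, of which 10 rose and 4 fell, against 20.9% and 18.9% of all genes, with a median change of 0.31. Over neighbours up to 2 genes away, 15 of 39 rose and 9 fell, with a median of 0.10. Jdp2 and Batf had the small changes given above beside a 4.02-fold rise of Fos, and Batf3 did not pass beside the 18.9-fold rise of Atf3. Neither neighbour of Egr1, Reep2 (-0.06) or Etf1 (0.02), passed. Flot1, a membrane raft gene beside Ier3, rose by 2.20 (SE 0.09), and Hook2, beside Junb, by 1.02 (SE 0.11). Rtn2, beside Fosb, which did not pass, had the largest rise of an immediate neighbour, 2.21 (SE 0.14). Other neighbours moved against the gene beside them: Nenf, beside Atf3, fell by 1.16 on the log2 scale (SE 0.08), and AI837181 and Ccdc85b rose by 1.74 (SE 0.11) and 1.17 (SE 0.08) beside Fosl1, which fell.

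Genes with the most similar values were found as those at the smallest Euclidean distance over the 4 arrays, each gene centred on its own mean. For Atf3 they were the arginase Arg2 (distance 0.13), the mitochondrial dehydrogenase Aldh6a1 (0.16) and Sprr1b (0.16). Arg2 was near background in DMSO, so its rise of at least 3.34 is a lower bound. For Fosl1 they were the kinase Stk35 (0.03) and the ribosome biogenesis factors Rrp12 (0.03) and Ppan (0.04). With 2 groups of 2 arrays, this likeness is mostly likeness in the size of the change.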

How the data were processed

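RNA of 4 samples was measured on Affymetrix mouse arrays. The authors deposited log2 values, 1 for each array at every probe set, and the submitters' processing notes list the Transcriptome Analysis Console and RMA. Their versions and the genome build are not given in the sources used here. RMA, as defined, subtracts background, equalises the arrays' distributions and summarises probes, so a shift common to all transcripts is lost. Array medians lay between 4.19 and 4.28. The number of arrays limits the precision.

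The 64 control probe sets were left out. Symbols came from the platform annotation: 34945 probe sets had 1 symbol, 932 several and 9160 none. A gene was represented by its brightest probe set, by the average of the 4 arrays. limma 3.58.1 in R 4.3.3 (lmFit, eBayes) compared the groups, two-sided, with Benjamini-Hochberg adjustment over 45037 probe sets. The threshold was 0.05, with no filter or further normalization. The code was also run on simulated data with independent noise, which cannot show its error rate on these arrays. For a gene near background in DMSO the change is given as at least the vorinostat mean minus the near-background limit in DMSO. Neighbours came from a RefSeq table (GRCm38.p6), used for gene order only.

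The 10 genes, the lists and the tests were chosen with earlier results of these data known. The named genes were all probe sets of the 10, for each list the 2 largest rises and the 2 largest falls that passed, and the 3 genes most like the largest rise and fall. Others named in a list (relatives of a member, the Dusp, Mmp, Elk, Batf and Jdp2 genes, Il6, single neighbours) were chosen after their values were seen. Alternatives were other variance models, a filter on level, scaling on reference genes, the array median or quantiles, the mean of a gene's probe sets, a replicate block and the omission of each array. Listed genes without a probe set of 1 symbol were not analysed here.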

Additional observations from a re-analysis of the deposited data

How the results depend on the processing

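Of 166 values of the 14 AP-1 and immediate early probe sets under alternatives, 158 kept their direction and side of the threshold, 3 lost a call (Jund without single arrays, as given above), 2 gained one and 3 changed sign. The number of the 10 genes that rose lay between 6 and 7 when single arrays were left out and between 7 and 9 otherwise, and 1 fell throughout. The sign changes were those of the dimmer probe sets of Fosl2 (-0.076 without Vorinostat 2, the low end of a range to 0.20 without single arrays), Jun (0.128) and Jund (0.0064), the last pair under scaling on a longer list of 13 reference genes, an alternative chosen after seeing the data. That scaling moved the median gene from 0.03 to 0.24, because those genes had a mean change of -0.21, and with it 73.6% of called genes were higher, against 52.5% on the deposited scale. Jun (0.37, adjusted p = 0.0172 by limma) and Fosb (0.46, adjusted p = 0.00753) then passed. Scaling on the first 6 reference genes moved the median gene to 0.02. Those 6 genes had a mean change of 0.01 but a median change of -0.12. Among them B2m was called higher (0.72, SE 0.09). The other 5 did not pass, with changes between -0.26 (Ywhaz) and 0.08 (Actb). Over all probe sets, 7440 were higher and 7051 lower; without single arrays the ranges were 3778 to 4284 and 3900 to 4575, and the longer scaling gave 15753 higher.

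Counts in the lists of related genes changed with several alternatives, and the cause was not tested. Without single arrays, 4 to 5 bZIP partners were higher, 1 to 2 other immediate early genes lower, 3 to 5 upstream genes higher and 2 lower, 1 to 2 cofactors higher and 0 to 1 lower, and 3 AP-1 targets lower. Under the longer scaling 1 other immediate early gene, 2 upstream genes, 1 cofactor and 3 targets were lower. With the mean of all probe sets of a gene, 5 bZIP partners were higher, and 1 other immediate early gene and 2 cofactors lower. With an intensity trend, with probe sets above the median level or with arrays centred on their median, 7 upstream genes were lower. The replicate block left 7 of the 10 genes higher and 1 lower, and gave 1 other immediate early gene, 2 upstream genes and 2 cofactors lower. The correlation of same-numbered deviations was -0.06. With only 2 pairs, it cannot settle whether the numbers mark paired arrays.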
